A study of Mus musculus with 6 samples.

Results

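The genes described here are the 77 genes of the deposited count matrix whose symbol begins with Mrpl or Mrps and a number, out of 24062 genes listed. They encode proteins of the mitochondrial ribosome: 48 carry large subunit symbols (Mrpl) and 29 small subunit symbols (Mrps). The rule used symbols only and no measured value, although the set was picked for description with earlier results of these data known. All 77 passed the filter on low counts, with between 547 and 19625 reads per gene and library. Messenger RNA was profiled in C57BL/6 mouse bone marrow cells sorted for the receptor Kit, a population that the series design also calls lineage-negative. The 3 KO libraries came from Mx1-Cre positive mice with floxed Ints11 alleles and the 3 WT libraries from wild-type littermates, with 1 mouse per library. Sorting took place 4 days after poly(I:C), which switches on the interferon-responsive Mx1 promoter. This promoter responds in many cell types, so deletion is not limited to Kit-positive cells. The labels do not say whether WT mice carried Cre, nor how old the mice were. Ints11 encodes the endonuclease of the Integrator complex, which cleaves nascent RNA.

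The mitochondrial ribosome translates the few messenger RNAs of mitochondrial DNA, all of which encode membrane subunits of the respiratory chain and the ATP synthase. Its RNAs come from mitochondrial DNA, whereas its proteins are encoded in the nucleus, made in the cytosol and imported. Some of these proteins descend from the bacterial ribosome and others were added in the mitochondrial lineage. In blood progenitors, mitochondrial translation supplies the respiratory chain on which proliferation and differentiation draw.

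The genes lie on 17 chromosomes, with 10 on chromosome 11 and 8 on chromosome 17. RefSeq promoter sequences (GRCm38.p6) were found for 68 of them, and the 250 bases before each annotated start were searched on both strands. The consensus site of nuclear respiratory factor 1 (NRF1) occurred before 10 of the 68 genes (14.7%), against 4.23% of all 27025 genes with a promoter entry and 8.15% of the tested genes. Its core letters GCATGCGC occurred before 8 (11.8%), against 2.56% and 4.6%. CCGGAAG, the core site of ETS factors such as GABP, occurred before 17 (25%), against 7.83% and 13.9%. The E-box CACGTG occurred before 5 (7.35%), against 6.86% and 9.15%, and AAGATGG, the core of a YY1 site, before 6 (8.82%), against 5.18% and 5.15%. The longer sites can contain these cores, so the counts overlap. By subunit, the NRF1 consensus stood before 9 of 42 large and 1 of 26 small subunit genes, and the ETS letters before 11 and 6. By call, the NRF1 consensus stood before 4 of 41 genes called lower in KO and 6 of 27 others. The median log2 change was -0.38 with this site and -0.43 without it. The ETS letters stood before 10 called genes and 7 others. These counts describe letters in a window and do not show binding. Printed here are the called gene with the smallest adjusted p in each subunit that has an entry (Mrpl24 and Mrps24), and the called gene with an NRF1 consensus and the smallest adjusted p in each (Mrpl45 and Mrps21). Capitals mark the NRF1 consensus, which begins 120 and 38 bases before the start of Mrpl45 and, on the opposite strand, 91 bases before that of Mrps21. The Mrpl24 and Mrps24 windows held no NRF1 consensus and no CCGGAAG. For both genes the RefSeq start lies inside the GENCODE gene, whose first annotated start is farther upstream. Mrps35 has no entry.
Mrpl24, chr3:87919294-87919543, forward strand: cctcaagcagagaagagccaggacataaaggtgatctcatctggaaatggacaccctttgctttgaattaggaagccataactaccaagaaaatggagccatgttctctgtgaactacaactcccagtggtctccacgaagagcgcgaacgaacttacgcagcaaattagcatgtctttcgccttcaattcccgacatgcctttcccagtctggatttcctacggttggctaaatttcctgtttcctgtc
Mrps24, chr11:5707702-5707951, reverse strand: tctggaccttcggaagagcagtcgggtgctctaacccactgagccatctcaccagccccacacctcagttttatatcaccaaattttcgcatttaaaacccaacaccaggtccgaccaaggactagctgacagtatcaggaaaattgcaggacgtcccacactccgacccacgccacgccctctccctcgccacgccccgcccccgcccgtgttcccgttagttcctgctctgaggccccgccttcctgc
Mrpl45, chr11:97315466-97315715, forward strand: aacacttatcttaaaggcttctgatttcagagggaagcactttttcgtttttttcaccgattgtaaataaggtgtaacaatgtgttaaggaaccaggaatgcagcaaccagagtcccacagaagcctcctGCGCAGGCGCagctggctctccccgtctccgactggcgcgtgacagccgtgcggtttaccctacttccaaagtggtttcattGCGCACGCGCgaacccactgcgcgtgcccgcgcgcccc
Mrps21, chr3:95871515-95871764, reverse strand: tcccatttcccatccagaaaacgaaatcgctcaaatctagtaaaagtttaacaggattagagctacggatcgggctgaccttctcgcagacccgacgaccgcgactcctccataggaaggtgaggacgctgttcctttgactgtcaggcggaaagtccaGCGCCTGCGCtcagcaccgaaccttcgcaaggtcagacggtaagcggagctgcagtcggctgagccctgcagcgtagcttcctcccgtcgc

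Most mitochondrial ribosomal protein genes were lower in Ints11 KO cells. Of 77 genes, 48 fell and 0 rose at an adjusted p of 0.05 (edgeR quasi-likelihood test, Benjamini-Hochberg adjusted over all 15742 tested genes), and 75 had a log2 change below 0. Among all tested genes 19.9% were called lower and 16% higher. Among the 8963 tested genes with a mean of at least 10 CPM (reads scaled to a common library size with TMM factors), the shares were 32% and 9.62%. The median log2 change was -0.43 for the 77 genes, 0.01 for all tested genes and -0.15 for those with at least 10 CPM. A log2 change below 0 was found for 7720 of all 15742 tested genes and for 6011 of the 8963 with at least 10 CPM. The lower and upper quartiles of the 77 were -0.58 and -0.33, and the genes that fell at least 2-fold were Mrps35 and Mrpl38. KO and WT libraries did not overlap, with KO lower, for 57 genes (74.03%), against 28.4% of all tested genes and 43.7% of those with at least 10 CPM.

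**Figure D1:**
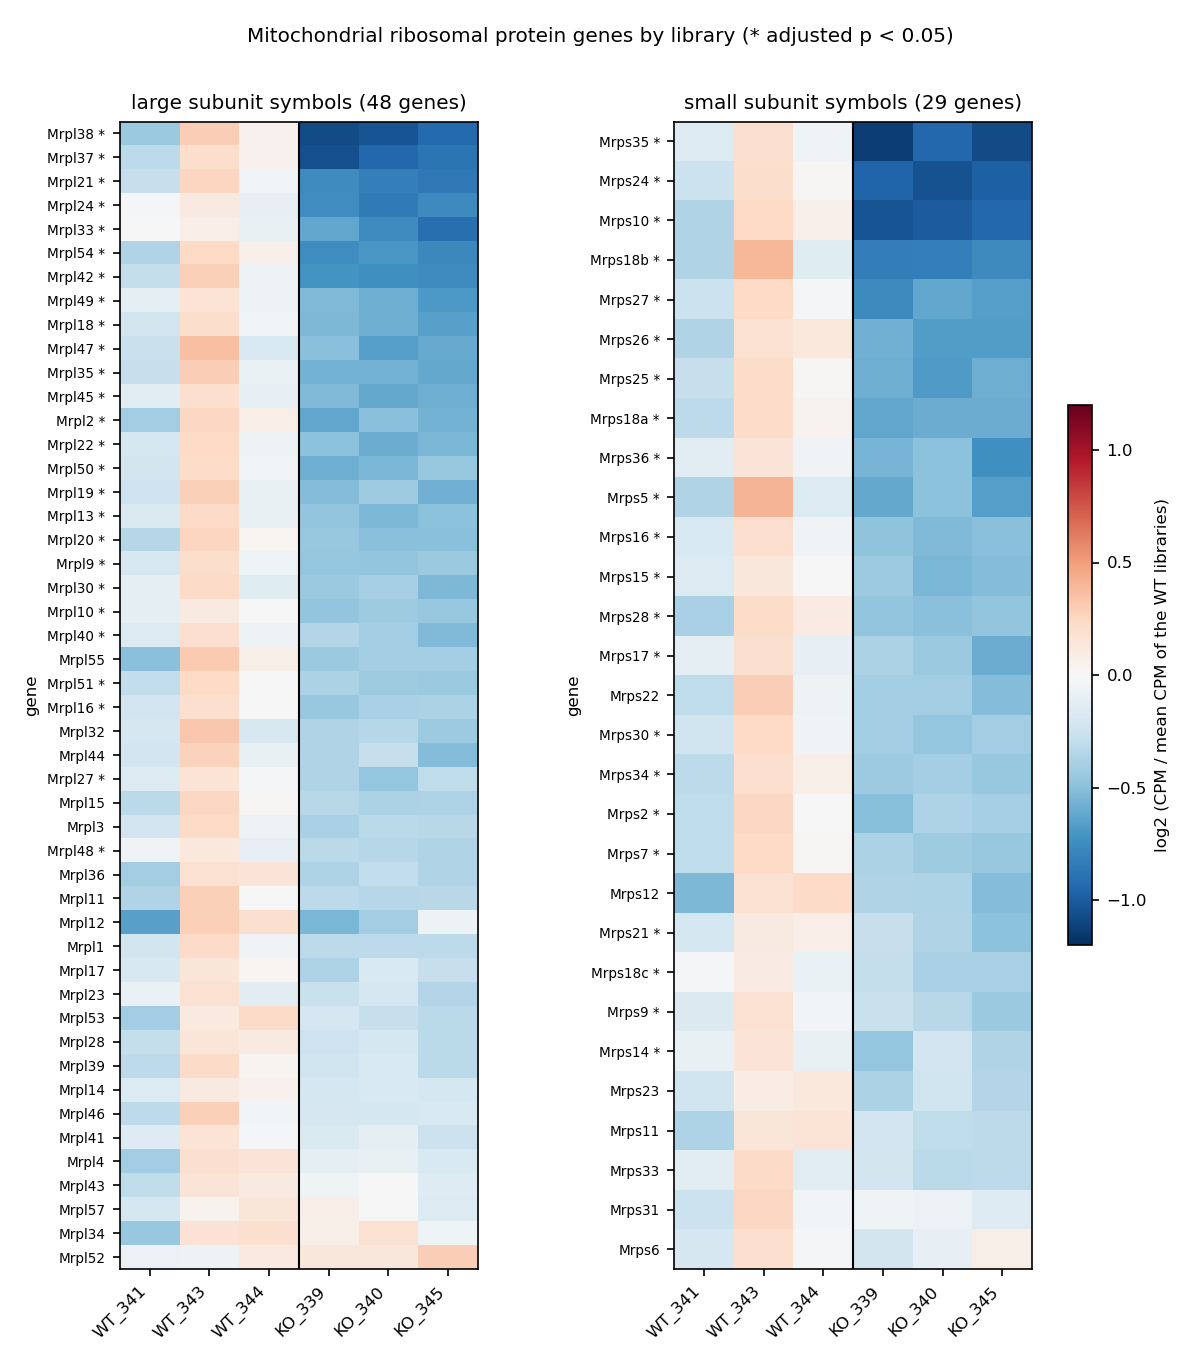
Level of each gene in each library as log2 of its CPM over the mean CPM of the 3 WT libraries, for 48 large (left) and 29 small subunit symbols (right), sorted by log2 change, with an asterisk at an adjusted p under 0.05. The KO columns are blue for nearly all genes, and WT_341 is paler or bluer than WT_343 in most rows.

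Summed over the 77 genes, WT_341 held 2363 CPM, WT_343 3231 CPM and WT_344 2773 CPM. KO_339 held 2046 CPM, KO_340 2054 CPM and KO_345 1993 CPM. The KO libraries thus lay close together and all below the WT libraries, with means of 2031 ± 33.4 and 2789 ± 434 CPM (SD, n = 3 each). As a share of raw counts the sum was 0.269 ± 0.0357% in WT and 0.21 ± 0.00212% in KO libraries. The coefficient of variation between mice had a median over the 77 genes of 16.8% in WT and 4.02% in KO libraries. The medians were 14.7% and 8.02% over all tested genes, and 10.5% and 5.01% over those with at least 10 CPM. Within WT the libraries kept nearly the same order from gene to gene: WT_341 was the lowest of the 3 for 69 of 77 genes and WT_343 the highest for 70. Among all 15742 tested genes these counts were 7274 and 6634. They were 4754 and 4602 among the 8963 genes with at least 10 CPM. Against the WT mean, the median gene of WT_341, WT_343 and WT_344 stood at -0.23, 0.23 and -0.01 (log2), and at -0.42, -0.41 and -0.44 in KO_339, KO_340 and KO_345.

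The order of the WT libraries ran opposite to that of mature neutrophil markers, which are transcripts of cells more mature than the sorted population. Of 18 such markers 17 were listed under a matched symbol, all were tested and none was at 0. Of these markers 8 were called higher in KO and 0 lower, against 16% higher among all tested genes and 9.62% with at least 10 CPM. In WT_341, WT_343 and WT_344 the mean log2 CPM of the markers was 8.90, 7.45 and 8.15. It was 9.50, 9.16 and 9.17 in KO_339, KO_340 and KO_345. Their summed level was 12784 to 39762 CPM in WT and 47767 to 62395 CPM in KO libraries, without overlap. With the mean marker level as a covariate, 5 of the 77 genes were called lower and 0 higher, and the median log2 change was -0.09. In that fit 4.33% of all tested genes were called lower, against 6.49% of the 77, and the median of all tested genes was 0.02. The marker level was higher in every KO than in every WT library, so with 6 libraries marker level and genotype cannot be told apart. In bulk samples, fewer cells that express a gene and less of its RNA per cell cannot be told apart either. Without WT_341, the WT library with the most neutrophil marker RNA, 69 of the 77 genes were called lower (median log2 change -0.56). This library also had the highest summed erythroid markers, 815 CPM against 423 to 547 CPM in the other libraries. Among WT libraries it had the highest summed B cell markers (80.2 against 25.03 and 36.0 CPM). Its summed macrophage markers were the lowest (308 against 497 and 527 CPM). The part of these markers in the result was not tested. WT_341 was the only WT library with little Xist, the RNA of the inactive X chromosome in female mice (log2 CPM 2.21 against 10.98 and 11.12). Of the KO libraries, KO_339 and KO_340 had little (0.86 and 1.89) and KO_345 much (11.17), so the sexes were not balanced between genotypes. With sex inferred from Xist as a covariate, 32 of the 77 genes were called lower and 0 higher, and the median log2 change was -0.36. The share of all tested genes called lower in that fit was 17.3%.

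Leaving out other libraries reduced the count. It was 33 without WT_343, 27 without WT_344, 17 without KO_339, 20 without KO_340 and 20 without KO_345, always with 0 higher. Across these 6 fits the median lay between -0.56 and -0.32. The share of all tested genes called lower also moved, from 26.6% without WT_341 to 7.95% without KO_339. Under upper-quartile factors 70, and under library totals 71, of the 77 genes had a log2 change below 0. Upper-quartile factors left 29 of the 77 genes called and library totals 32, with 12.3% and 14.1% of all tested genes called lower. These scalings moved the median of all tested genes to 0.15 and 0.11. Measured from that median, the 77 genes stood at -0.44 under each of the 3 scalings.

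**Figure D2:**
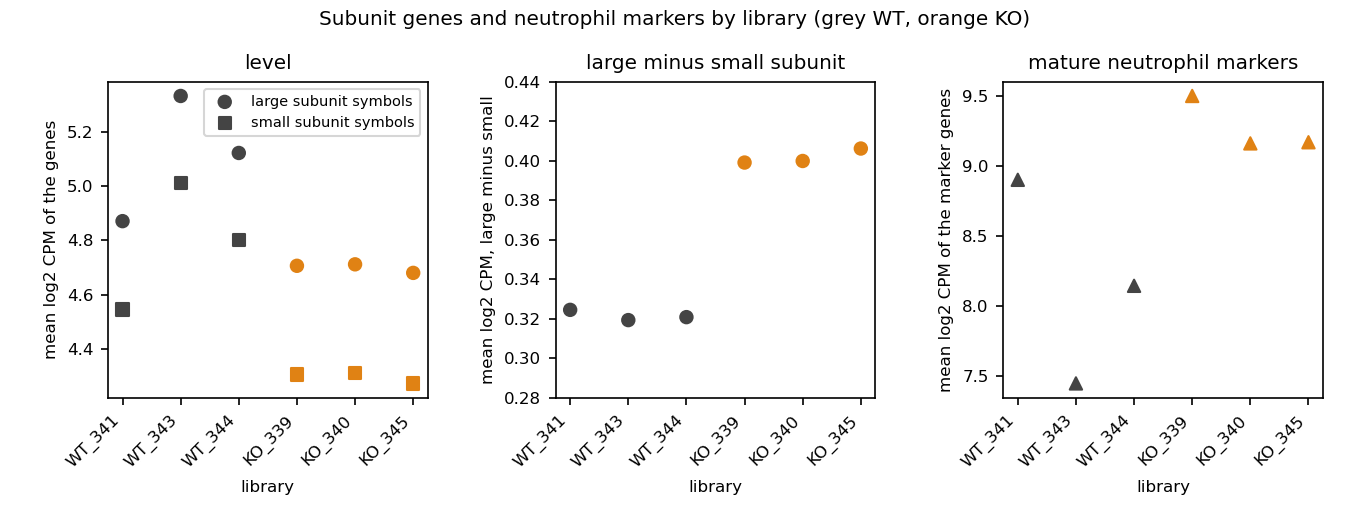
Mean log2 CPM per library of large (circles) and small (squares) subunit genes (left), the large minus small difference (middle, axis not from 0) and the mean log2 CPM of mature neutrophil markers (right), with WT in grey and KO in orange. The difference lies between 0.319 and 0.325 in WT and between 0.399 and 0.406 in KO libraries, while both levels vary more among WT mice.

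Genes of both subunits fell. Of 48 large subunit genes 26 fell (54.2%), with a median log2 change of -0.41, and of 29 small subunit genes 22 fell (75.9%), with a median of -0.45. No gene of either subunit was called higher. All 29 small and 46 of 48 large subunit genes had a log2 change below 0 as reported, though not under every scaling (Mrps6 and Mrps31 stood at 0.06 and 0.05 with upper-quartile factors). KO libraries lay wholly below WT libraries for 33 large and 24 small subunit genes. The difference between the subunits in the share of calls was not tested.

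The balance of the subunits was nearly constant among mice of one genotype. The mean log2 CPM of large minus small subunit genes was 0.325, 0.319 and 0.321 in WT_341, WT_343 and WT_344, and 0.399, 0.400 and 0.406 in KO_339, KO_340 and KO_345. The groups did not overlap, and their means differed by 0.08 log2 units at SDs of 0.00267 and 0.00389 (n = 3 each). The ratio of the summed CPM was 2.08, 2.08 and 2.06 in WT libraries and 2.14, 2.15 and 2.15 in KO libraries. Scaling factors cancel in this ratio, so it does not depend on the normalization. In the difference of median levels, which rests on single genes, WT (0.27, 0.20 and 0.22) and KO libraries (0.29, 0.29 and 0.37) were separated by a smaller gap, again without overlap. Symbols do not fully match the structure: the products of Mrps18a and Mrps30 sit in the large subunit, and Mrps36 encodes an adaptor of the 2-oxoglutarate dehydrogenase complex. Grouped by structure, 28 of 50 large and 19 of 26 small subunit genes fell, and the mean difference was 0.277, 0.270 and 0.270 in WT and 0.341, 0.342 and 0.347 in KO libraries.

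**Figure D3:**
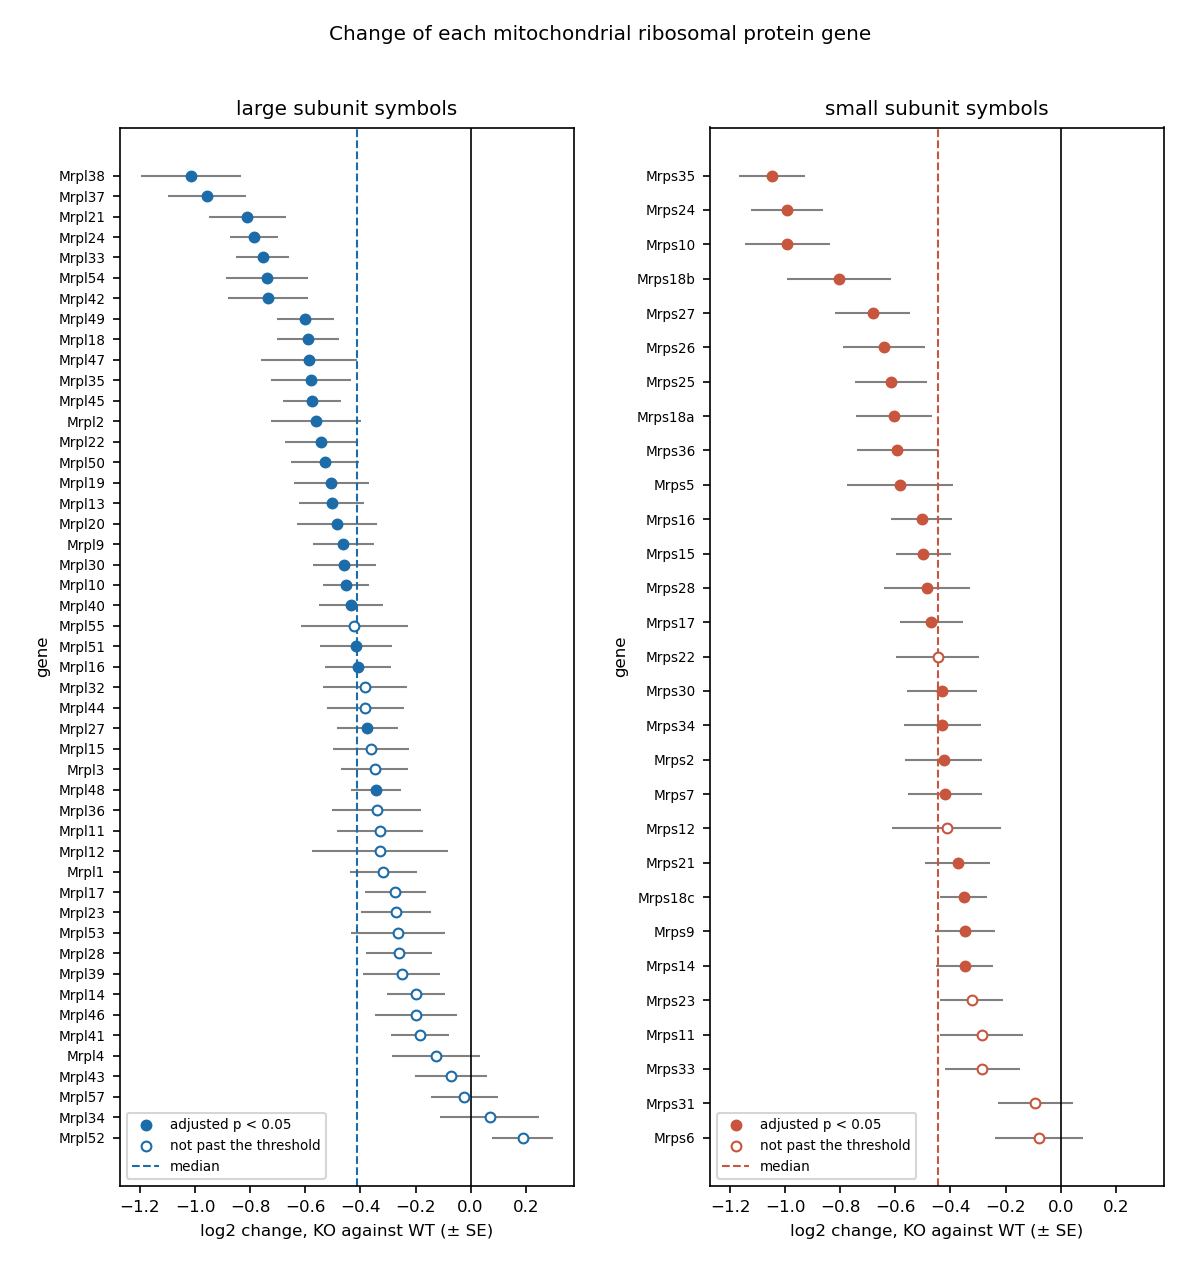
Log2 change with a standard error derived from the F statistic of the test for each gene, large subunit symbols on the left and small on the right. Filled points passed an adjusted p of 0.05 and dashed lines mark the medians of -0.41 and -0.45. With TMM factors, as plotted, the small subunit genes all lie below 0 (Mrps6 and Mrps31 do not with upper-quartile factors), and Mrpl34 and Mrpl52 are the large subunit genes above it.

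Of the large subunit genes on the exit path of the nascent peptide, 5 are described first, and 3 of these 5 fell. Mrpl24, whose bacterial counterpart lies at the tunnel exit, had 45.1, 49.01 and 42.5 CPM in WT_341, WT_343 and WT_344 and 27.1, 25.4 and 26.8 CPM in KO_339, KO_340 and KO_345. The genotypes were well apart, with the smallest adjusted p of all 77 genes (log2 change -0.79 ± 0.09 SE, adjusted p = 0.0029, edgeR). The gene lies on chromosome 3 (87919506 to 87923672, forward strand, GRCm38), and 38.1% of its exon bases overlap Rrnad1 on the opposite strand. No source states whether the counting used strand, and reads from the overlap cannot be assigned. Mrpl45, which anchors the ribosome at the inner membrane, fell from 53.9 ± 7.14 to 36.2 ± 1.14 CPM, and Mrpl22, of the tunnel wall, from 19.4 ± 3.1 to 13.3 ± 0.491 CPM (adjusted p = 0.00864 and 0.018, edgeR). Mrpl23, also at the tunnel, did not pass (log2 change -0.27 ± 0.13, adjusted p = 0.13, edgeR). Mrpl44, which carries a ribonuclease III-like fold, did not pass either (-0.38 ± 0.14, adjusted p = 0.0657, edgeR), and KO libraries lay below WT libraries for both. The call of Mrpl22 was lost without any single KO library, and Mrpl44 passed without WT_341 (with adjusted p-values from 0.0139 to 0.953 over all settings).

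Of 3 genes of the stalk that recruits elongation factors, 1 passed. Mrpl10, its anchor, had 47.7, 55.5 and 51.7 CPM in WT and 37.3, 38.4 and 37.6 CPM in KO libraries (log2 change -0.45 ± 0.08, adjusted p = 0.00845, edgeR). Mrpl12, the flexible stalk protein, had 21.9, 42.1 and 39.2 CPM in WT_341, WT_343 and WT_344 and 23.5, 25.7 and 33.02 CPM in KO_339, KO_340 and KO_345. Its groups overlapped, with WT_341 the lowest of all 6 libraries, and it did not pass (-0.33 ± 0.25, adjusted p = 0.322, edgeR). Mrpl11, of the stalk base, did not pass (-0.33 ± 0.16, adjusted p = 0.135, edgeR). Mrpl12 and Mrpl11 passed when WT_341 was left out, with adjusted p-values of 0.0142 and 0.00603 (edgeR). Mrpl3, near the peptidyl transferase centre, went from 52.3 ± 8.79 to 41.1 ± 1.02 CPM without passing (adjusted p = 0.0604, edgeR), and passed without WT_341.

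The deepest drops of the large subunit were those of Mrpl38 and Mrpl37. Mrpl38, of the central protuberance, had 18.1, 30.4 and 25.6 CPM in WT and 11.7, 12.02 and 12.9 CPM in KO libraries (log2 change -1.02 ± 0.18, adjusted p = 0.00798, edgeR). Mrpl37, a mitochondria-specific protein, had 32.8, 47.2 and 42.1 CPM in WT and 19.6, 21.2 and 22.1 CPM in KO libraries (-0.96 ± 0.14, adjusted p = 0.00474, edgeR). WT libraries were spread widely for both genes and KO libraries narrowly, without overlap. Mrpl33, a homologue of bacterial L33, fell from 63.04 ± 3.6 to 37.4 ± 3.68 CPM and Mrpl21 from 30.5 ± 5.72 to 17.4 ± 0.659 CPM. Mrpl49 fell from 34.3 ± 3.59 to 22.6 ± 1.23 CPM. Mrpl47, a homologue of bacterial L29, fell from 18.2 ± 4.51 to 12.1 ± 0.704 CPM (adjusted p = 0.0349, edgeR), but not without WT_344 or any single KO library, nor with either other scaling. As a class, 16 of 29 bacterial homologues and 10 of 19 mitochondria-specific genes of the large subunit symbols fell, with medians of -0.41 and -0.42. Among the small subunit symbols 13 of 16 and 8 of 12 fell, with medians of -0.42 and -0.53. The latter 12 include Mrps18a and Mrps18b, paralogues of a bacterial protein. Mrps18a and Mrps30, also among the 12, encode proteins of the large subunit.

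In the small subunit, Mrps35, a mitochondria-specific protein, showed the deepest drop of all 77 genes. It had 30.8, 39.6 and 33.3 CPM in WT_341, WT_343 and WT_344 and 15.8, 17.97 and 16.4 CPM in KO_339, KO_340 and KO_345 (log2 change -1.05 ± 0.12, adjusted p = 0.00299, edgeR). Every KO library lay below the lowest WT library, and the fitted change was -51.6%. The gene spans 147042764 to 147073991 on chromosome 6 (forward strand). Mrps24, the counterpart of bacterial S3 at the entry of the messenger RNA, had 21.4, 29.7 and 25.8 CPM in WT and 13.2, 12.4 and 12.99 CPM in KO libraries (-0.99 ± 0.13, adjusted p = 0.00377, edgeR). Mrps10, of the head, had 17.5, 26.4 and 23.3 CPM in WT and 10.9, 11.2 and 11.7 CPM in KO libraries (-0.99 ± 0.15, adjusted p = 0.00537, edgeR). For these genes too the genotypes did not overlap. Mrps15, a homologue of bacterial S15, fell from 44.2 ± 4.61 to 31.3 ± 1.32 CPM, and Mrps27, a protein with pentatricopeptide repeats, from 21.8 ± 3.75 to 13.6 ± 0.684 CPM. Mrps25 fell from 41.2 ± 7.09 to 26.9 ± 0.998 CPM, and 75.6% of its exon bases overlap Nr2c2 on the opposite strand.

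Mrps12, whose bacterial counterpart monitors codon pairing, had 13.9, 22.9 and 23.6 CPM in WT and 15.7, 15.6 and 14.004 CPM in KO libraries. WT_341 was again the lowest library, and the gene did not pass (log2 change -0.41 ± 0.20, adjusted p = 0.137, edgeR). Mrps11, of the platform, did not pass (-0.29 ± 0.15, adjusted p = 0.167, edgeR). Mrps12 and Mrps11 passed without WT_341 (adjusted p = 0.00181 and 0.00509, edgeR). Mrps7, of the head, fell from 52.4 ± 9.81 to 39.1 ± 1.07 CPM (adjusted p = 0.0461, edgeR), and Mrps28, related to bacterial S1, from 24.1 ± 5.07 to 17.2 ± 0.155 CPM (adjusted p = 0.0462, edgeR). Both calls were lost without any single library other than WT_341, and with either other scaling. Mrps36, the dehydrogenase adaptor, fell from 6.82 ± 0.717 to 4.52 ± 0.382 CPM, and its call was likewise lost without any single library other than WT_341.

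The Mrps18 family, 3 paralogues of 1 bacterial protein, occupy different places in the ribosome. Mrps18b, of the small subunit, had 19.8, 33.5 and 22.9 CPM in WT and 14.3, 14.4 and 14.96 CPM in KO libraries (log2 change -0.80 ± 0.19, adjusted p = 0.0172, edgeR). Its antisense gene Gm16279 covers 59.1% of its exon bases. Mrps18a, of the large subunit, had 25.4, 36.8 and 32.5 CPM in WT and 20.5, 20.9 and 20.9 CPM in KO libraries (-0.60 ± 0.14, adjusted p = 0.016, edgeR). Mrps18c, the paralogue at the bacterial position, had 39.0, 42.4 and 37.5 CPM in WT and 32.5, 30.3 and 30.3 CPM in KO libraries (-0.35 ± 0.09, adjusted p = 0.0199, edgeR). All 3 fell, without overlap between genotypes, and the differences between their changes were not tested. The calls of Mrps18b and Mrps18c were lost without any single KO library (that of Mrps18c also with upper-quartile factors), and that of Mrps18a without WT_344 or KO_339. Mrps30, also of the large subunit, fell from 40.1 ± 6.67 to 29.7 ± 0.633 CPM, and its call was lost without any single library other than WT_341.

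The 29 genes that did not pass comprised 22 large and 7 small subunit genes, and 27 of them had log2 changes below 0. Their log2 changes lay between -0.45 and 0.19, and 8 of them had an adjusted p under 0.1. The genes nearest the threshold were Mrps2 inside it (adjusted p = 0.0496) and Mrps22 outside it (adjusted p = 0.0543, edgeR), named after their values were seen. Mrpl52, also named for its value, had 9.94, 10.03 and 11.35 CPM in WT and 11.45, 11.46 and 12.8 CPM in KO libraries. All KO libraries were above all WT libraries, but the gene did not pass (log2 change 0.19 ± 0.11, adjusted p = 0.211, edgeR). Mrps6, a homologue of bacterial S6, had 5.21, 6.89 and 5.92 CPM in WT and 5.14, 5.6 and 6.31 CPM in KO libraries, which overlapped (-0.08 ± 0.16, adjusted p = 0.716, edgeR, and 0.06 with upper-quartile factors).

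Calls that stood in each of the 6 fits without 1 library were made for 17 genes: Mrpl10, Mrpl18, Mrpl21, Mrpl24, Mrpl33, Mrpl37, Mrpl38, Mrpl42, Mrpl45, Mrpl49, Mrpl54, Mrps10, Mrps15, Mrps24, Mrps25, Mrps27 and Mrps35. The same 17 passed with both other scalings, both other filters, DESeq2, limma-voom and sex as a covariate. The share of all tested genes whose calls stood in every fit without 1 library was not counted, so the 17 have no matching background. The fit without KO_339 alone also called 17, or 22.1% of the mitochondrial ribosomal protein genes. In that fit 7.95% of all tested genes were called lower. With the neutrophil marker covariate 5 genes passed, all among the 17. These were Mrps35 (log2 change from -1.05 to -0.76), Mrpl33 (from -0.76 to -0.75), Mrpl24 (from -0.79 to -0.71), Mrps24 (from -0.99 to -0.65) and Mrpl37 (from -0.96 to -0.54). Mrps10 and Mrpl38, with changes of similar size to these in the reported fit, stood at -0.53 and -0.43 with that covariate (adjusted p = 0.0536 and 0.0907, edgeR).

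**Figure D4:**
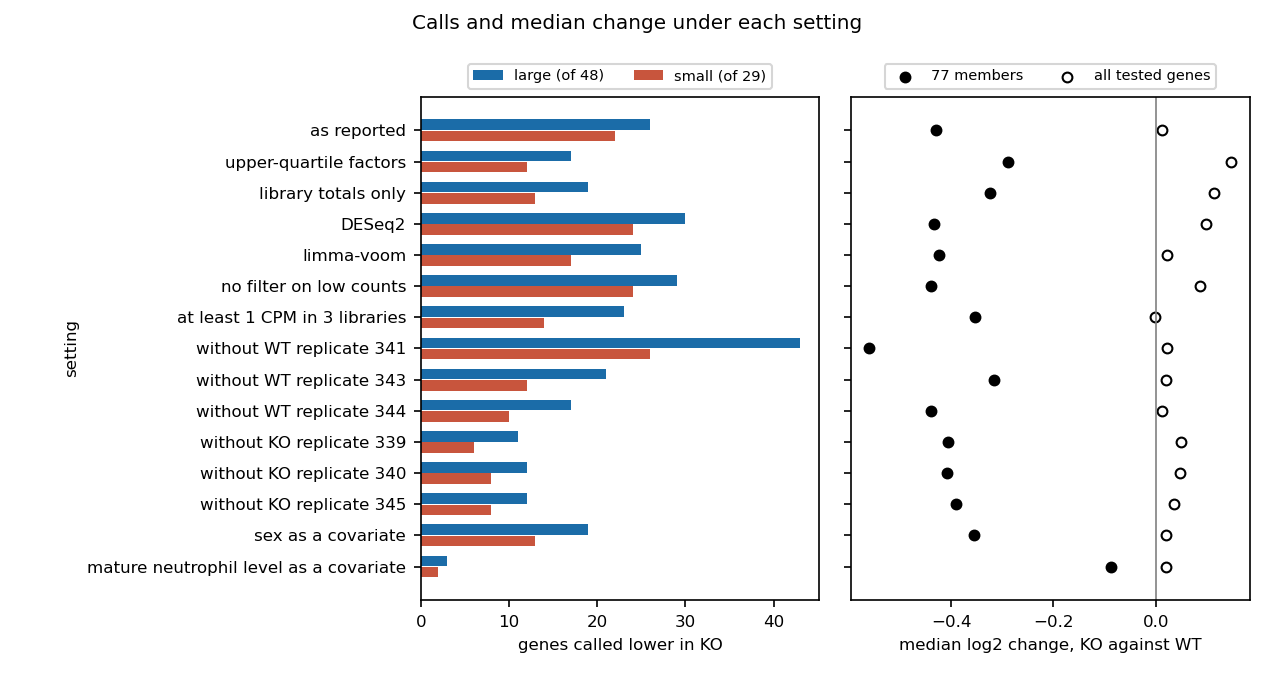
Number of large (blue) and small (red) subunit genes called lower (left) and median log2 change of the 77 genes and of all tested genes (right) under each setting. Counts run from 5 with the neutrophil covariate to 69 without WT_341, and the median of the 77 genes is below that of all tested genes in every setting shown.

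Per kilobase of annotated coding-transcript exons, levels differed widely between genes of one particle. The WT mean per kilobase had a median of 22.5 CPM for large and 18.1 CPM for small subunit genes, and 16.9 and 12.9 CPM in KO libraries. The highest WT levels per kilobase were 132 CPM for Mrpl33, 87.8 CPM for Mrpl18 and 66.9 CPM for Mrpl42 in the large subunit. In the small subunit they were 51.4 CPM for Mrps21, 47.2 CPM for Mrps15 and 42.1 CPM for Mrps18c. The lowest in the large subunit were 5.38 CPM for Mrpl17 and 5.41 CPM for Mrpl47, and in the small subunit 6.78 CPM for Mrps25 and 6.98 CPM for Mrps33. Annotated exon lengths ran from 478 to 7605 bases, and the low values belong to genes with long annotated exons, apart from Mrps33. All of these but Mrpl17 (log2 change -0.27, adjusted p = 0.0885) and Mrps33 (-0.28, adjusted p = 0.135, edgeR) fell. The call of Mrps21 was lost in 10 of 14 alternatives, among them both other scalings, sex as a covariate and each fit without a single library other than WT_341.

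Of the 77 genes, 18 start within 1000 bp of a protein-coding gene on the opposite strand that points away from them, at gaps of 26 to 935 bp. Of these 18, 14 fell, with a median log2 change of -0.46 for the 18. Of the 18 partners 5 were lower, 2 higher and 11 not called, with a median of -0.13. Among all tested genes 19.9% were lower and 16% higher (median 0.01). Among those with at least 10 CPM 32% were lower and 9.62% higher (median -0.15). Both genes of the pair fell for Mrpl37 and Cyb5rl, Mrpl51 and Ncapd2, Mrps27 and Ptcd2, and Mrps5 and Zfp661. The mitochondrial gene fell and its partner rose for Mrpl2 (-0.56) and Klc4 (0.34), and for Mrps34 (-0.43) and Eme2 (0.36). For Mrpl49 and Fau, which encodes a cytosolic ribosomal protein fused to a ubiquitin-like domain, the values were -0.60 and 0.02, with only the former called. The calls of Mrpl51, Mrps5, Mrps34 and Mrpl2 were lost with both other scalings, with sex as a covariate and without any single library other than WT_341. These pairs were named after their values were seen. Exon bases were shared with another annotated gene for 29 of the 77 genes. Of these 29, 21 fell, with a median log2 change of -0.43. Of the 48 without such overlap 27 fell, with a median of -0.42. The difference between these shares was not tested.

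Other genes of mitochondrial translation were counted in lists chosen with earlier results of the same data known. Among all tested genes 19.9% were called lower and 16% higher, and among those with at least 10 CPM 32% and 9.62%. Of 6 proteins of the mitochondrial ribosome with other symbols, 5 fell (83.3%) and 0 rose, with a median log2 change of -0.65. Aurkaip1 fell from 76.5 ± 8.14 to 44.04 ± 1.45 CPM, Chchd1 from 37.7 ± 7.58 to 20.8 ± 0.904 CPM and Ptcd3 from 108 ± 18.4 to 61.6 ± 1.87 CPM, all small subunit proteins. Of 26 assembly factors 15 fell (57.7%) and 0 rose (median -0.42). Among them were Ngrn (-0.77) and Mpv17l2 (-0.54), which act on the large subunit, and Eral1 (-0.57), a chaperone of the small subunit RNA. Of 14 genes listed as translation factors, Lrpprc and Slirp among them, 11 fell (78.6%) and 0 rose (median -0.47). Lrpprc, which stabilises mitochondrial messenger RNAs, had 133, 206 and 166 CPM in WT and 72.0, 72.9 and 81.5 CPM in KO libraries (-1.16 ± 0.15, adjusted p = 0.00378, edgeR). The initiation factor Mtif2 (-0.58) and Guf1 (-0.46), a homologue of bacterial LepA, also fell, Guf1 not without KO_339 or KO_345. With the neutrophil marker covariate the calls of Chchd1, Ngrn, Mpv17l2, Eral1, Mtif2 and Guf1 were lost. Those of Aurkaip1, Ptcd3 and Lrpprc stood.

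Of 12 genes of mitochondrial DNA upkeep and transcription, 4 fell and 0 rose, with a median log2 change of -0.33. This share of 33.3% is close to the 32% called lower among all tested genes with at least 10 CPM, and above the 19.9% among all tested genes. The topoisomerase Top1mt (-0.85), the transcription factor Tfb2m (-0.55) and the elongation factor Tefm (-0.52) fell. The call of Top1mt was lost without KO_339, that of Tfb2m without WT_344, KO_339 or KO_340, and that of Tefm without any single library other than WT_341. Of 12 nuclear regulators of mitochondrial genes, 3 fell (25%, between these background shares) and 2 rose, with a median of -0.09. Nrf1, whose site was searched above, had 76.8 ± 2.03 CPM in WT and 71.9 ± 3.38 CPM in KO libraries and did not pass (log2 change -0.09 ± 0.07, adjusted p = 0.318, edgeR). Gabpb2, a subunit of the ETS factor GABP, fell from 239 ± 12.01 to 171 ± 0.858 CPM (-0.49 ± 0.07, adjusted p = 0.00422, edgeR). Gabpa and Gabpb1, the other GABP subunits listed, did not pass (log2 change -0.08 and 0.07, adjusted p = 0.494 and 0.421, edgeR). Hcfc1, a transcriptional cofactor, fell by 0.33 on the log2 scale, but not without WT_344 or any single KO library, nor with either other scaling. Ppargc1a, a coactivator of these factors, rose from 0.116 ± 0.0681 to only 0.407 ± 0.0625 CPM, and its call was lost without WT_344 or any single KO library. The calls of Top1mt, Tfb2m, Tefm, Hcfc1 and Ppargc1a were also lost with the neutrophil marker covariate, and that of Gabpb2 stood. Mitochondrially encoded genes were not analysed here.

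**Figure D5:**
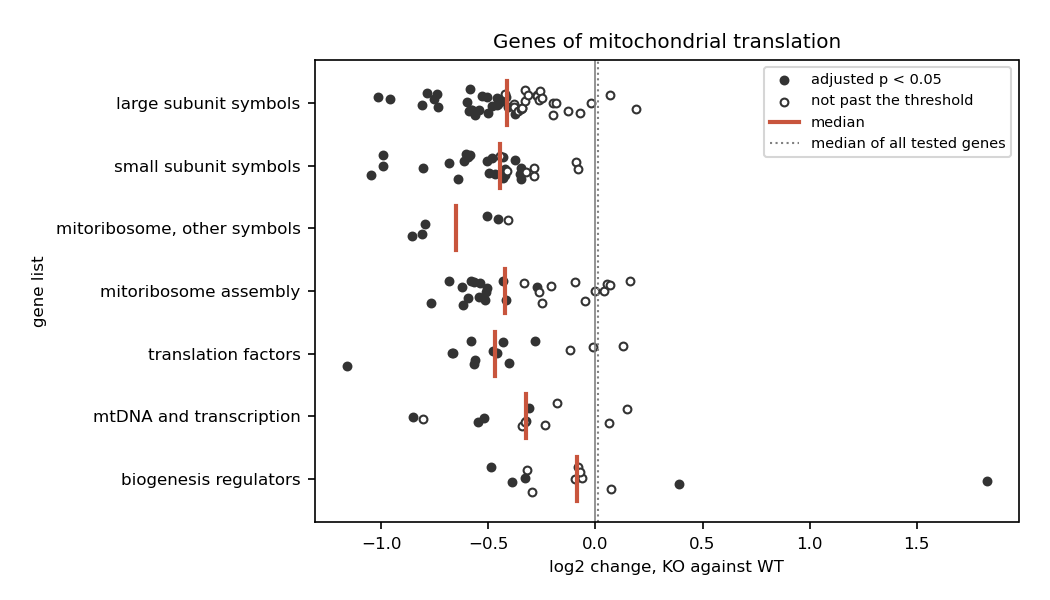
Log2 change of each tested gene of 7 lists (filled, adjusted p under 0.05; open, not), with the list median as a red bar and the median of all tested genes as a dotted line. The medians run from -0.65 for ribosomal proteins with other symbols to -0.09 for the regulators, and the filled points above 0 are Esrra and Ppargc1a.

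Library totals were 124074531 to 166860739 counts. Ints11, listed as Cpsf3l, was lower in every KO than in every WT library (58.3 to 64.3 against 73.8 to 92.3 CPM). Its log2 change was -0.42 ± 0.10 (adjusted p = 0.0174, edgeR). The call was lost without KO_340 or KO_345, and with the neutrophil marker covariate. Kit stood at 211 ± 11.5 CPM in WT and 228 ± 9.28 CPM in KO libraries and did not pass. Of 12 stem and progenitor markers, 4 fell (Mpo, Elane, Prtn3 and Ctsg, which encode granule proteins) and 3 rose (Cd34, Gata2 and Meis1). The share that fell, 33.3%, is close to the 32% called lower among tested genes with at least 10 CPM. In that background 9.62% were called higher. Among all tested genes 19.9% were called lower and 16% higher, which also applies to the marker counts below. Markers of other cell types were read as sums of CPM. Megakaryocyte markers were at 40.8 to 62.5 CPM in WT and 98.2 to 145 CPM in KO libraries, without overlap, with 4 of 8 called higher and 0 lower. Of 7 stroma and endothelium markers 3 were called higher (Col1a1, Col1a2 and Bglap), with sums of 82.1 to 95.9 CPM in WT and 94.8 to 172 CPM in KO libraries, which overlapped. B cell markers were at 25.03 to 80.2 CPM in WT, highest in WT_341, and 47.9 to 80.4 CPM in KO libraries, which overlapped. Over all 6 libraries the T and NK cell sum of 195 to 298 CPM was nearly all Nkg7. Vcam1 was the largest part of the macrophage sum of 308 to 655 CPM. No gene of these lists was at 0 in all libraries. The part of these markers in the lower level of the 77 genes was not tested.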

How the data were processed

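The authors deposited 1 table of raw read counts per gene symbol, with 1 column per library and no normalization. Per the submitters' processing notes, the build was mm10 and the tools were FastQC, Trimmomatic, STAR and HTSeq. Their versions, the annotation, and how strand and multiply mapped reads were handled are not stated. Per the labels' protocols, libraries came from a strand-specific kit for messenger RNA.

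Groups came from the sample titles, with 3 libraries each. No replicate number is shared between genotypes. RNA came from individual mice, and batches are not named. The test was edgeR 4.0.16 (R 4.3.3) on the deposited counts: filterByExpr with a minimum count of 10 and minimum total of 15, TMM factors, robust glmQLFit, then glmQLFTest on genotype, adjusted by Benjamini-Hochberg over 15742 genes and a threshold of 0.05. CPM are TMM-scaled, and log2 CPM use a prior count of 2. The SE of a log2 change was derived from the test, as its absolute value over the square root of the F statistic. The fit was checked on simulated counts. Alternatives were upper-quartile factors, library totals, DESeq2 1.42.0, limma-voom (limma 3.58.1), no filter, at least 1 CPM in 3 libraries, leaving out each library, sex (inferred from Xist, since the labels give none) and the mean level of mature neutrophil markers as covariates.

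Positions and exon lengths are from GENCODE M21 on GRCm38, the assembly that mm10 names, and are 1-based. Of the 77 symbols all matched. RefSeq promoter entries were not used for Mrpl13, Mrpl15, Mrpl19, Mrpl38, Mrpl4, Mrpl54, Mrps28, Mrps34 and Mrps35, which have none in the table used. The genes, the lists and the tests were chosen with earlier results of these data known. The rule for named genes took, per subunit, the 6 called genes with the smallest adjusted p, the 3 highest and 2 lowest levels per kilobase, a fixed set of genes with known places in the ribosome, and up to 3 genes per other list.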

Additional observations from a re-analysis of the deposited data

How the results depend on the processing

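The 48 genes called lower became 29 with upper-quartile factors and 5 with the neutrophil marker level as a covariate, and 17 to 69 when single libraries were left out. The 26 calls in the large subunit became 17 and 3 under those settings, and 11 to 43 without single libraries. The 22 calls in the small subunit became 12 and 2, 13 with library totals, 14 with the filter of at least 1 CPM in 3 libraries, 13 with sex as a covariate, and 6 to 26 without single libraries. No setting called any of the 77 genes higher. The median log2 change of the 77 genes was -0.43 as reported, -0.0873 with the neutrophil covariate and -0.56 to -0.32 without single libraries. The median of large minus small subunit genes was 0.03 as reported, 0.0192 with subunits taken from the structure, 0.0274 with sex and 0.0787 with the neutrophil covariate as covariates, and 0.0184 to 0.0676 without single libraries. Genes chosen by the rule for named genes kept the sign of their change in each setting except under the neutrophil covariate, where Mrpl11 (0.16), Mrpl12 (0.46), Mrpl17 (0.0101), Mrpl3 (0.0131), Mrps11 (0.0781) and Mrps12 (0.12), none of them called, were above 0. Of all 77 genes 26 were above 0 with that covariate, among them Mrps2 (0.0101) and Mrps5 (0.00797), which were called lower as reported. Outside the rule, Mrps6 was at 0.06 with upper-quartile factors, and Mrpl34 ranged from -0.12 to 0.54 over the settings. Over the named genes and settings, 575 results kept their side of the threshold and direction, 121 lost a call and 11 gained one. The cause of these shifts was not tested beyond the construction of each setting: fits without 1 library have fewer samples, and covariates take a degree of freedom. No paired analysis was possible because the genotypes share no replicate numbers. Each of the 77 genes had at least 547 reads in every library.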
